A study of Mus musculus with 6 samples.

Results

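The genes described here encode the cytosolic factors that start and extend protein synthesis in mouse cells, and some proteins that inhibit or modify those factors. Members were taken by symbol, as every gene whose name begins with Eif1 to Eif6 or with Eef1 or Eef2, leaving out the eIF2 kinases and pseudogenes, with at least 10 expected counts in at least 3 of the 6 libraries. Of 64 matching symbols, 58 met that minimum, out of 13655 rows that met it among the 53090 rows of each file. The members nearest the minimum were Eef1e1, with 75 counts over the 6 libraries and 10 or more in 4 of them, and Eif5a2, with 83 counts and also 4 libraries. Just outside it were Eif3j2, with 53.4 counts, and Eef1akmt1, with 52 counts, each reaching 10 in 2 libraries. Eef1akmt3 had 18 counts, and Eef1a2, Eif4e1b and Eif2c5 were at 0 in every library.

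Bulk RNA was sequenced from neutrophils taken from the liver (3 libraries) and from the circulating blood (3 libraries) of mice kept for 1 week on food containing DDC (3,5-diethoxycarbonyl-1,4-dihydrocollidine), which damages bile ducts. Every library came from DDC-fed mice, so nothing here compares fed with unfed animals. Both groups were selected with Ly6G magnetic beads, liver cells after a Percoll gradient and blood cells after red cell lysis, so tissue and preparation cannot be told apart. The labels give no strain, age or sex and do not say that libraries came from separate mice, so the p-values measure the spread between these libraries, which may be technical.

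Initiation begins when the small ribosomal subunit, bound by eIF1, eIF1A, eIF3 and eIF5, takes up the initiator tRNA carried by eIF2 and GTP. The eIF4F complex, made of the cap-binding protein eIF4E, the scaffold eIF4G and the RNA helicase eIF4A, brings the mRNA, and 4E-binding proteins block it by occupying eIF4E unless mTORC1 phosphorylates them. In elongation eEF1A delivers aminoacyl-tRNA and eEF2 moves the ribosome along, a step that the kinase eEF2K inhibits.

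The libraries held 13778681 to 17579669 counts in liver and 13054673 to 14403803 in blood. Neutrophil markers, 13 genes such as S100a8 and Csf3r, summed to 8266 to 14466 depth-scaled read counts (CPM) in liver and 23610 to 34857 in blood. Of these, 9 were lower in liver and 4 were not called: Itgam, Ngp, Ltf and Camp. Ngp, Ltf and Camp had positive log2 fold changes (0.54, 0.61 and 1.03), with liver library 1 far above the others. Ngp had 610, 76.1 and 118 CPM in liver libraries 1, 2 and 3 and 138 to 213 in blood. Monocyte markers summed to 2747 to 3486 CPM in liver and 202 to 493 in blood, with 6 of 7 higher in liver. Most of that was Nr4a1, at 1985 to 2346 CPM in liver and 137 to 363 in blood, and Ly6c2 was not called, at 11.95 to 16.5 CPM in liver and 14.8 to 19.3 in blood. Kupffer cell and macrophage markers stood at 526 to 1011 CPM in liver and 327 to 510 in blood, with 5 of 10 tested higher and 0 lower. Csf1r, not called, gave 292 to 400 of that in liver and 286 to 350 in blood. Clec4f and Marco, both higher, had 5.11 to 59.6 and 5.59 to 59.4 CPM in liver and 0 to 0.358 and 0 to 1.65 in blood. Cd5l was not called, at 12.7 to 119 CPM in liver and 0 to 45.5 in blood. Hepatocyte markers stood at 272 to 498 CPM in liver and 108 to 152 in blood, with 7 of 8 tested higher. Trf alone gave 254, 175 and 255 of that in liver libraries 1, 2 and 3 and 107 to 145 in blood, while Alb had 7.23, 73.0 and 148 CPM in liver and 0.0874 to 2.44 in blood. Endothelial markers had 19.5 to 33.6 CPM in liver and 14.7 to 18.3 in blood, with 3 of 4 tested higher. Biliary markers had 7.36 to 55.2 CPM in liver and 8.65 to 13.1 in blood, with 2 of 3 tested higher and 1 lower. Krt8 and Krt18 were higher, Krt8 at 0.977, 18.8 and 33.8 CPM in liver libraries 1, 2 and 3. Krt7 was lower, at 2.05 to 3.84 CPM in liver and 8.39 to 12.7 in blood. Krt19 and Sox9 were at 0 in all blood libraries and low in liver, at 0 to 1.11 and 0.0651 to 0.420 CPM. Platelet markers had 7.81 to 16.5 CPM in liver and 34.9 to 214 in blood, with 3 of 6 tested lower, and lymphocyte markers 8.41 to 14.9 in liver and 11.4 to 67.9 in blood, with 3 of 8 tested lower. Erythroid genes ranged from 143 to 2723 CPM in liver and from 366 to 33609 in blood, with 0 of 7 called. The part of these other cells in the translation factor values was not tested. In bulk RNA, fewer cells of a type and less RNA per cell cannot be told apart.

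A gene for each of the 3 parts of eIF4F rose in liver neutrophils, and 2 genes for proteins that hold eIF4E back fell. The eIF4 group as a whole did not rise in the same way. Of its 11 members 8 were not called, among them Eif4a2, Eif4e2, Eif4g2 and Eif4g3, and its median log2 fold change was 0.15. The call of Eif4g1 was kept in 14 of 16 alternative fits. Eif4a1, Eif4e and Eif4g1 were 2.56-, 2.54- and 1.88-fold higher in liver, and Eif4ebp1 and Eif4ebp2 were 2.78- and 1.69-fold lower. The eIF3 subunits Eif3a, Eif3b, Eif3e, Eif3g and Eif3i, Eif2s1, Eif5 and Eef1a1 were also higher, and Eef2k and Eif2d were lower. With edgeR's quasi-likelihood test and Benjamini-Hochberg adjustment over 13458 genes, at an adjusted p under 0.05, 11 of 58 members were higher in liver (19.0%) and 4 were lower (6.90%), while 43 were not called. Of all genes tested, 17.4% were higher and 14.2% lower, so the share of members higher was close to the background. These counts mix factors with their inhibitors: Eif4ebp1, Eif4ebp2 and Eef2k were among the 4 members lower. Every liver library lay above every blood library for 22 members (37.9%, against 25.8% of all genes) and below for 7 (12.1%, against 22.7%). The median log2 fold change, liver minus blood, was 0.30 over the members and 0.04 over all genes tested, and members ranged from -2.00 to 1.68. Without a filter on low counts, which brought 26614 genes into the fit, the order of the medians turned, at 0.28 over the members and 0.42 over all genes. A change was positive in 42 members and negative in 16.

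**Figure D1:**
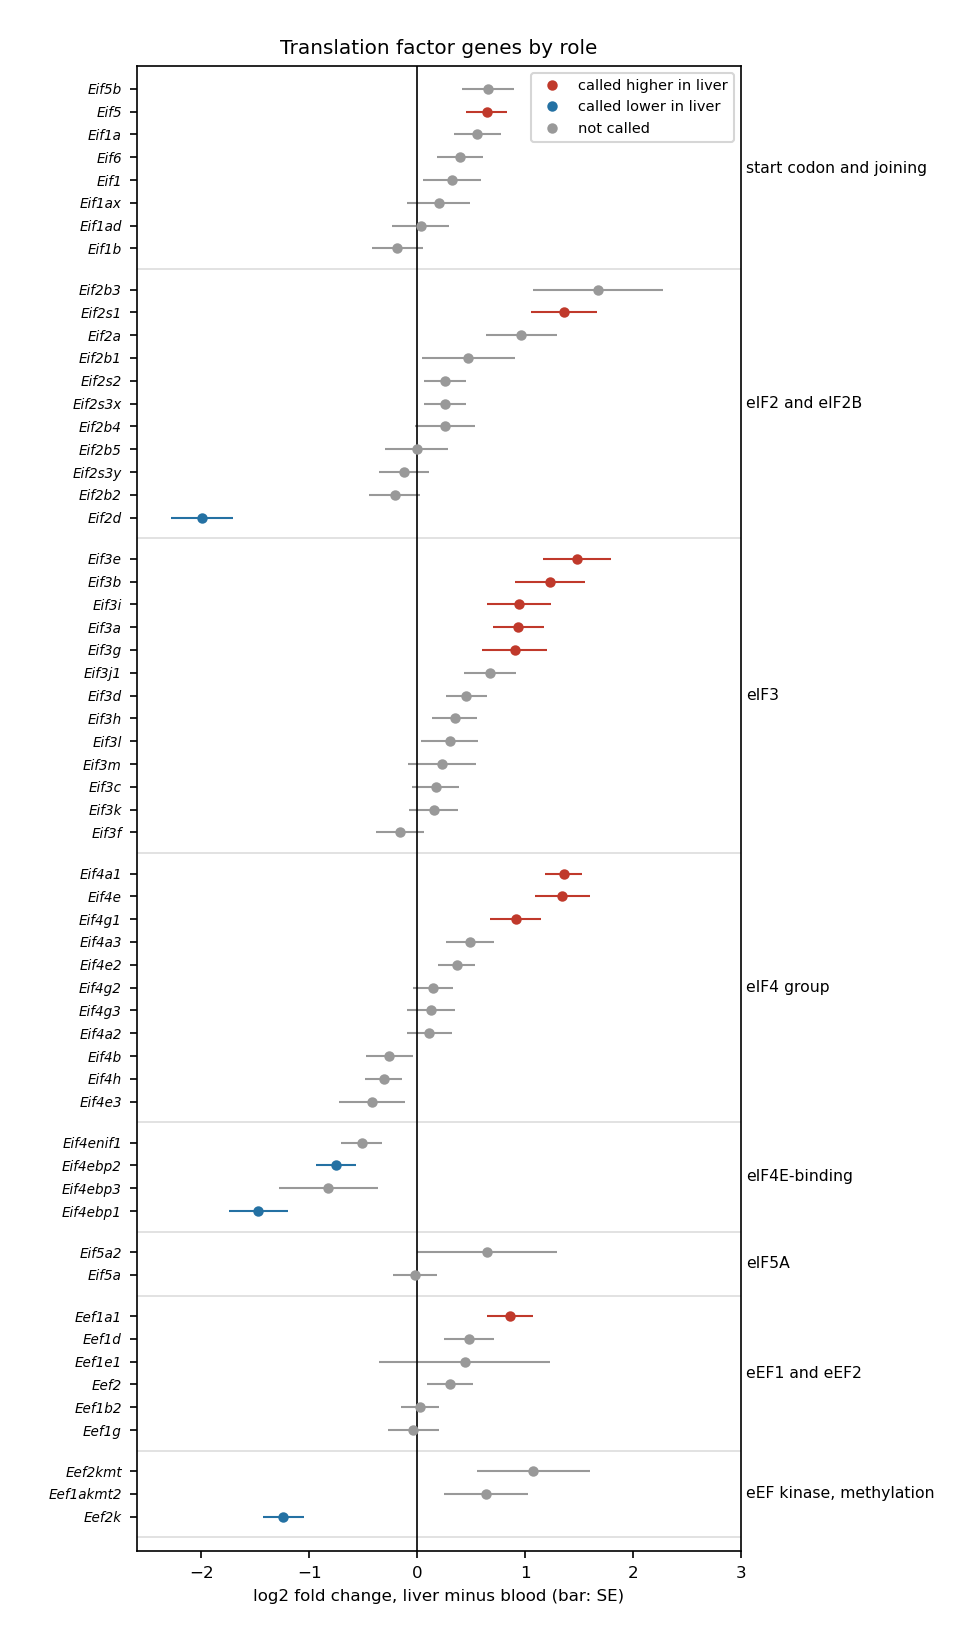
Log2 fold change, liver minus blood, of the 58 members grouped by role, with bars of 1 standard error. Called members are coloured, 11 higher in liver and 4 lower, and all 4 genes of the eIF4E-binding group lie left of 0.

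Together the members took 6507 to 7132 CPM in liver and 5138 to 5677 CPM in blood, without overlap, with means of 6783 ± 319 and 5339 ± 294 (SD, n = 3 each). Without Eef1a1 the ratio of the liver mean to the blood mean was 1.21, against 1.27 with it. Just 6 genes, Eef1a1, Eif1, Eef2, Eif5, Eif3a and Eif4g3, made up 53.8% of the summed CPM in liver and 46.8% in blood. Levels of different genes were compared as counts per kilobase of exon, scaled to the same total in every library. By that measure Eef1a1 had 1114 ± 236 in liver and 616 ± 89.5 in blood, and Eif1, which scans for the start codon, had 829 ± 152 in liver and 659 ± 90.2 in blood (SD, n = 3 each). The spreads of Eef1a1 and Eif1 overlapped within each group, and the translocase gene Eef2 followed with 516 ± 113 in liver and 419 ± 32.6 in blood. The order below them differed between tissues. Eif4a1 was the fourth in liver and ranked 10 in blood, while Eif4ebp1 ranked 16 in liver and was the fourth in blood.

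A promoter feature was searched in the RefSeq promoter table of build GRCm38.p6, which covers 250 bases before to 50 after each start. The motif was the E-box CACGTG, which MYC and related factors bind and which reads the same on both strands. It lay in 12 of 46 members with an entry (26.1%), in 12% of tested genes with an entry and in 8.09% of all 27025 gene symbols listed. A gene counted once if any of its listed promoters held the motif, so genes with several starts had more chances of a match. Members called higher held it in 4 of 9 cases (Eif4a1, Eif4e, Eif3a and Eif4g1), members called lower in 1 of 3 (Eef2k) and members not called in 7 of 34. A match is a description of the sequence, not a binding site. The windows below belong to the eIF4F genes that rose and to the elongation kinase gene that fell, with the motif in capitals.
Eif4a1, chr11:69672577-69672642, minus strand: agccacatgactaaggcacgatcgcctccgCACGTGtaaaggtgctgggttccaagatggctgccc
Eif4e, chr3:138527174-138527239, plus strand: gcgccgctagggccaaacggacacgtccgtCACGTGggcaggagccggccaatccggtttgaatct
Eif4g1, chr16:20672643-20672708, plus strand: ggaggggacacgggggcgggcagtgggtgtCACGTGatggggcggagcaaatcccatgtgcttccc
Eef2k, chr7:120842770-120842835, plus strand: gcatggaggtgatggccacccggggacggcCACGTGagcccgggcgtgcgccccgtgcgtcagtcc
The motif shown began 189 bases before the start in Eif4a1, 64 in Eif4e (from the downstream of its listed starts), 54 in Eif4g1 and 31 in Eef2k. Eif4e held a further copy 228 bases before the same start and Eif4g1 a further copy 15 bases after it.

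Within the eIF4 group 3 of 11 members were higher (27.3%, against 17.4% of all genes tested) and 0 lower, with a median log2 fold change of 0.15. Eif4a1, the helicase that unwinds mRNA leaders (chromosome 11, 69666936 to 69672423), had 377, 348 and 370 CPM in liver libraries 1, 2 and 3, against 147, 145 and 136 CPM in blood libraries 1, 2 and 3. The liver libraries were all more than any blood library, with little spread in either group. The log2 fold change was 1.36 ± 0.17 (SE, adjusted p = 0.0008). Eif4e, the cap-binding protein (chromosome 3, 138526179 to 138559696), had 38.2, 24.4 and 29.4 CPM in liver, against 13, 10.2 and 13 CPM in blood. The lowest liver library still stood above the highest blood library, and the log2 fold change was 1.35 ± 0.26 (SE, adjusted p = 0.0045). Eif4g1, the scaffold, had 184, 162 and 204 CPM in liver and 110, 65.9 and 116 CPM in blood, without overlap, with a log2 fold change of 0.91 ± 0.24 (SE, adjusted p = 0.017). That call was lost without liver library 1 (adjusted p = 0.0505), while the change stayed at 0.90, and without liver 3 and blood 1 together (0.91, adjusted p = 0.067).

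The close relatives of these genes were not called. Eif4a2, the second eIF4A gene, had 212, 204 and 284 CPM in liver and 209, 256 and 183 CPM in blood, so the groups overlapped. Eif4a3, the helicase of the exon junction complex, had a log2 fold change of 0.49 ± 0.22 (SE, adjusted p = 0.12). Eif4e2, which binds the cap without eIF4G, had 70.5, 61.8 and 66.2 CPM in liver and 50.7, 49.99 and 53.4 CPM in blood, without overlap but with an adjusted p of 0.13. Eif4e3 stood at -0.42, Eif4g2 at 0.15 and Eif4g3 at 0.13 in log2 fold change. Exons of Eif4e3 overlap those of Gm20696 on the same strand, which had 53.7% of the counts of Eif4e3. Gm20696 was not called, at 0.51, and reads of the overlap cannot be told apart. Eif4b and Eif4h, which stimulate eIF4A, stood at -0.26 and -0.31, and every liver library of Eif4h lay under every blood library.

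All 4 members of the eIF4E-binding group had every liver library below every blood library, against 22.7% of all genes tested. Their median log2 fold change was -0.79, and 2 were called lower (50%, against 14.2% of all genes). Eif4ebp1, encoding 4E-BP1 (chromosome 8, 27260329 to 27276674), had 61.5, 75.0 and 37.5 CPM in liver, against 182, 177 and 124 CPM in blood. Liver library 3 was the lowest of its group and blood library 3 the lowest of its own, with a gap between the groups. The log2 fold change was -1.47 ± 0.27 (SE, adjusted p = 0.0040). Eif4ebp2, encoding 4E-BP2, had 167, 165 and 130 CPM in liver, against 249, 244 and 286 CPM in blood, with a log2 fold change of -0.75 ± 0.19 (SE, adjusted p = 0.014). Eif4ebp3 had 1.63, 1.92 and 2.25 CPM in liver and 2.51, 4.63 and 3.15 in blood, and was not called. Eif4enif1, the transporter that carries eIF4E into the nucleus, had 51.2, 65.8 and 57.9 CPM in liver and 71.4, 94.4 and 84.4 CPM in blood. It was not called (adjusted p = 0.065), but was with a replicate block (adjusted p = 0.025).

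**Figure D2:**
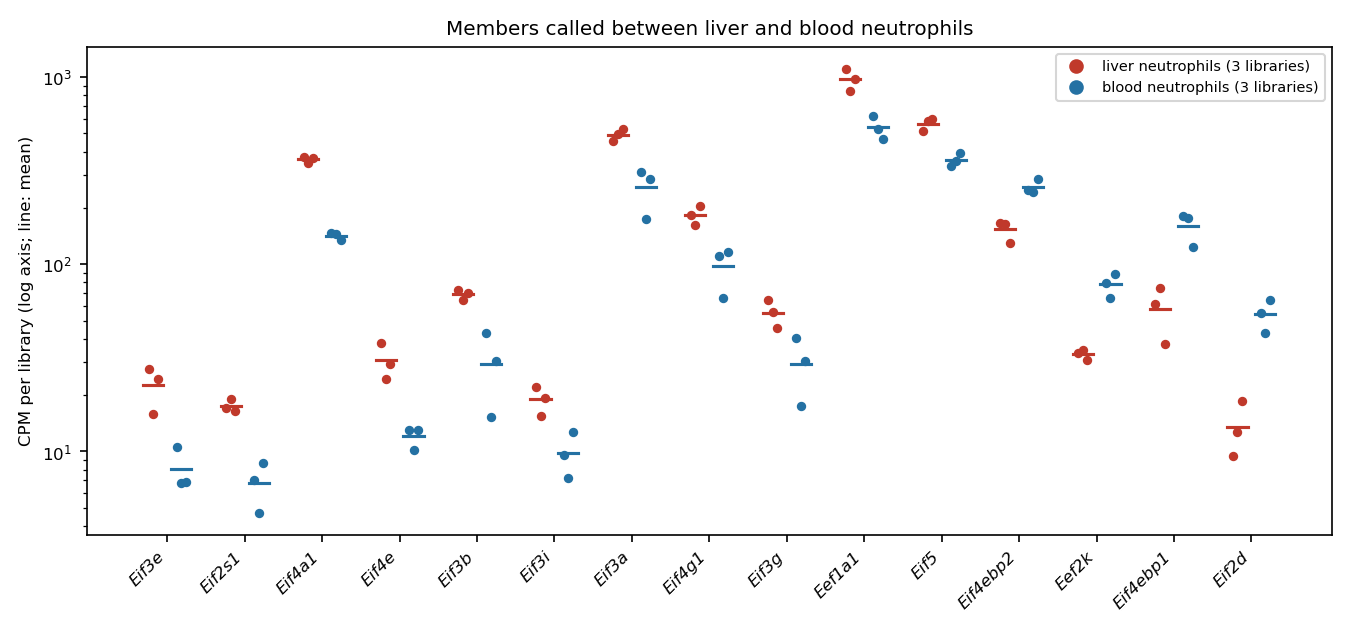
CPM per library on a log axis for the 15 called members, with 3 liver libraries (left of each pair) and 3 blood libraries, and a line at each mean. The genes were picked by their calls in these same libraries, and the 2 groups do not overlap for any of the 15. Eif4a1 shows 348 to 377 CPM in liver and 136 to 147 in blood.

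Ratios between members were taken within each library, per kilobase, for 9 pairs chosen with the values known. Eif4a1 over Eif4a2 was 1.96 ± 0.31 in liver and 0.825 ± 0.114 in blood (SD, n = 3 each), so the more abundant of the pair differed between tissues. Eif4e over Eif4e3 was 1.29 ± 0.20 in liver and 0.385 ± 0.100 in blood, values that depend on how reads were divided between Eif4e3 and Gm20696. Eif4ebp1 over Eif4e was 4.40, 8.39 and 3.49 in liver and 38.4, 47.3 and 26.2 in blood, 7.17-fold lower in liver. Per kilobase, the binding protein gene stood above the gene of its target in every library. The lengths were annotated exon bases, 2196 for Eif4ebp1 and 6008 for Eif4e, so numbers of transcripts were not measured. Counts before division by length were also higher for Eif4ebp1 in every library, and closest in liver library 3 (585 against 459). Eif4ebp2 over Eif4e was 5.37 ± 1.40 in liver and 22.5 ± 2.42 in blood, and Eef2k over Eef2 was 0.0249 ± 0.0042 in liver and 0.0729 ± 0.0199 in blood. No ratio overlapped between the groups. Each had an exact two-sided permutation p of 0.10, the smallest that 3 against 3 libraries allows, and 0.10 after Benjamini-Hochberg adjustment over the 9. Every pair held a member already called in these libraries, so this separation was largely set by the choice and is no further support.

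**Figure D3:**
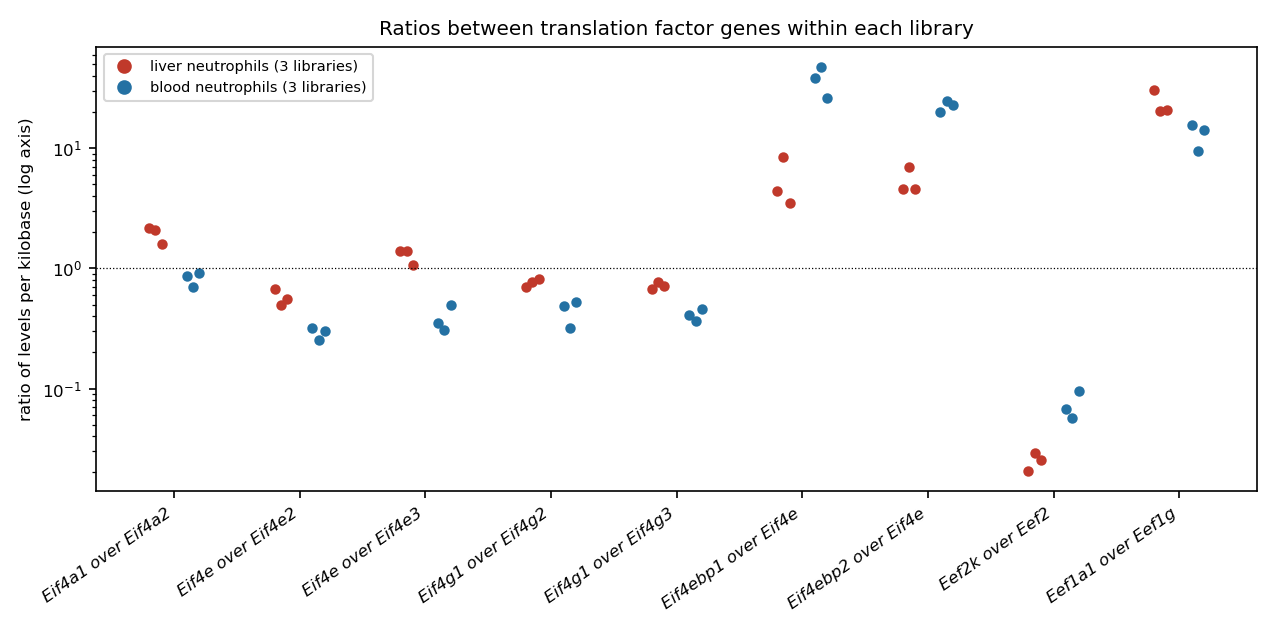
Ratio of levels per kilobase for 9 pairs of members in each library on a log axis, liver left of blood, with a dotted line at equal levels. Eif4ebp1 over Eif4e runs from 3.49 to 8.39 in liver and from 26.2 to 47.3 in blood.

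Of the 13 eIF3 subunits, which hold the small subunit ready for mRNA, 5 were higher in liver and 0 lower. The share higher was 38.5%, against 17.4% of all genes tested, and the median log2 fold change was 0.45. In budding yeast the core of eIF3 is made of the counterparts of Eif3a, Eif3b, Eif3c, Eif3g and Eif3i. Eif3a, the largest subunit, had 458, 496 and 526 CPM in liver, against 312, 176 and 284 CPM in blood, with a log2 fold change of 0.94 ± 0.24 (SE, adjusted p = 0.016). Eif3b, a scaffold of that core, had 73.0, 64.8 and 70.2 CPM in liver, against 42.8, 15.2 and 30.5 CPM in blood, with a log2 fold change of 1.23 ± 0.33 (SE, adjusted p = 0.019). Blood library 2 was the lowest library for Eif3a, Eif3b and Eif3g. Eif3g had 64.4, 55.9 and 45.4 CPM in liver and 40.6, 17.6 and 30.4 CPM in blood, and Eif3i had 22.1, 15.5 and 19.4 CPM in liver and 9.60, 7.25 and 12.7 CPM in blood. Their log2 fold changes were 0.90 ± 0.30 and 0.95 ± 0.30 (SE, adjusted p = 0.044 and 0.036).

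Eif3e, a subunit outside the yeast core (chromosome 15, 43250058 to 43282719), had the largest fold change of the members called higher, at 27.5, 15.9 and 24.5 CPM in liver and 10.54, 6.82 and 6.90 CPM in blood. Its log2 fold change was 1.48 ± 0.31 (SE, adjusted p = 0.0073). Eif3c, the remaining core subunit, had 92.3, 95.1 and 106 CPM in liver and 84.4, 64.4 and 112 CPM in blood, and the groups overlapped. Eif3d and Eif3h were not called although their groups did not overlap, and Eif3f, Eif3k, Eif3l and Eif3m overlapped. Eif3j1, a loosely bound subunit, had a log2 fold change of 0.68 ± 0.24 (SE, adjusted p = 0.058) and was called in 9 of 16 alternative fits, among them DESeq2, the fit without a filter, upper-quartile scaling and a replicate block (0.69, adjusted p = 0.024). Leaving out 1 library at a time moved the count of eIF3 subunits higher in liver to between 2 and 5: it was 2 without liver library 1, and 3 without liver library 3 or without blood library 2. Eif3g was called in 1 of those 6 fits (without blood library 1), Eif3i in 2 (without liver library 2 or blood library 3) and Eif3b in 4 (lost without liver library 1 or 3). Eif3a and Eif3e were called in all 6. The call of Eif3i was also lost with total-count scaling (adjusted p = 0.057) and without liver 3 and blood 1 together (adjusted p = 0.144).

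Of the 11 genes of eIF2, its exchange factor eIF2B and initiator tRNA delivery, 1 was higher and 1 lower. Each was 9.09%, against 17.4% higher and 14.2% lower of all genes tested. Eif2s1, the alpha subunit that stress kinases phosphorylate (chromosome 12, 78861819 to 78887010), had 17.1, 19.2 and 16.4 CPM in liver, against 7.02, 4.72 and 8.70 CPM in blood. The groups were well apart, with a log2 fold change of 1.36 ± 0.30 (SE, adjusted p = 0.0090). Its partners were not called: Eif2s2 stood at 0.26, Eif2s3x at 0.26 and the Y-linked Eif2s3y at -0.12 in log2 fold change. Eif2d, which can deliver tRNA without GTP (chromosome 1, 131153181 to 131187658), had 9.50, 12.7 and 18.6 CPM in liver, against 55.1, 43.1 and 64.5 CPM in blood. It was 3.99-fold lower in liver, with a log2 fold change of -2.00 ± 0.29 (SE, adjusted p = 0.0013). Its exons overlap those of Rassf5 on the opposite strand, whose log2 fold change was -1.66 (adjusted p = 0.00049) and whose counts were 956% of those of Eif2d. Libraries were made with a stranded kit, but no source used here gives the strand setting of the counting. Whether reads of the overlap were assigned by strand is therefore not known. Among the eIF2B subunits Eif2b3 stood highest at 1.68 ± 0.61 (SE, adjusted p = 0.060), from 8 to 65 counts per library. Eif2a, a separate tRNA-delivery factor, was the member closest to a call (0.97 ± 0.33, SE, adjusted p = 0.0506) and overlaps Serp1, an opposite-strand gene lower in liver.

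Among 8 members grouped under start codon scanning and subunit joining, Eif1ad included, 1 was higher in liver (12.5%, against 17.4% of all genes tested). Eif5, which triggers GTP hydrolysis on eIF2, had 514, 584 and 594 CPM in liver and 334, 357 and 393 CPM in blood, with a log2 fold change of 0.64 ± 0.19 (SE, adjusted p = 0.027). The call was lost on leaving out any library but liver library 1 (adjusted p from 0.057 to 0.121), with changes of 0.55 to 0.66, and without liver 3 and blood 1 together (0.53, adjusted p = 0.184). Eif1 had 731, 657 and 477 CPM in liver and 572, 580 and 339 CPM in blood, and the groups overlapped. Eif5b, the GTPase of subunit joining, Eif1a and Eif6, which keeps the subunits apart, had no overlap and were not called, at 0.66, 0.56 and 0.40. Eif1b stood at -0.18, Eif1ax at 0.20 and Eif1ad at 0.03. Eif5a, which helps ribosomes past difficult peptide bonds, had 193, 185 and 128 CPM in liver and 189, 171 and 153 in blood, and Eif5a2 had 0.911 to 1.54 CPM in liver and 0.469 to 1.00 in blood. Neither was called.

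Of the 6 members grouped as eEF1 and eEF2 genes, Eef1e1 among them, 1 was higher in liver (16.7%, against 17.4% of all genes tested). The part of each protein in elongation was not tested. Eef1a1, the most abundant member by CPM (chromosome 9, 78478449 to 78489151), had 1103, 847 and 981 CPM in liver, against 620, 530 and 468 CPM in blood, with a log2 fold change of 0.86 ± 0.21 (SE, adjusted p = 0.014). The call was lost without blood library 3 (adjusted p = 0.073) or liver library 1 (adjusted p = 0.055), and without liver 3 and blood 1 together (adjusted p = 0.055). Its expected counts were not whole numbers in all 6 libraries, so part of them was shared with similar loci. The same held for Eif4a1, Eif4a2, Eif1, Eef1g, Eif2s3x, Eif3j1, Eif4ebp3, Eif4g2 and Eif5b, and how much was shared was not measured. The exchange factor genes Eef1b2, Eef1d and Eef1g stood at 0.03, 0.48 and -0.04. Eef2 had 731, 544 and 545 CPM in liver and 531, 525 and 418 CPM in blood, without overlap and with an adjusted p of 0.30.

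Eef2k, the kinase that slows elongation through eEF2 (chromosome 7, 120842831 to 120907450), had 33.4, 35.02 and 30.8 CPM in liver, against 79.3, 66.2 and 88.6 CPM in blood. The liver libraries lay close together and all below blood. It was 2.36-fold lower in liver, with a log2 fold change of -1.24 ± 0.19 (SE, adjusted p = 0.0018). Eef2kmt and Eef1akmt2, methyltransferases of eEF2 and eEF1A, stood at 1.08 and 0.64 and were not called.

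Other genes of translation, listed by function, were read from the same fit, in which 17.4% of all genes tested were higher and 14.2% lower. Among 11 helicase and reinitiation genes, 7 were higher in liver (63.6%) and 0 lower, with a median log2 fold change of 0.71. Ddx3x, an RNA helicase for structured leaders, had 997, 1024 and 885 CPM in liver and 474, 509 and 405 CPM in blood. Denr, a reinitiation factor, was 2.80-fold higher, and Abce1, which recycles ribosomes, was 2.36-fold higher. Bzw2 was 8.93-fold higher, at 5.47 to 13.7 CPM in liver and 0.932 to 1.00 in blood. Leaving out a library gave 5 or 6 of the 11.

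Among 12 genes for eIF2 kinases, phosphatase subunits and their partners, 3 were higher and 5 lower, with a median of -0.44. The shares were 25% and 41.7%, against 17.4% and 14.2% of all genes tested. Impact, an inhibitor of the kinase GCN2, had 110, 57.7 and 90.0 CPM in liver and 11.9, 13 and 14.7 CPM in blood, 6.49-fold higher. Ppp1r15a (GADD34), the inducible subunit that directs eIF2 dephosphorylation, had 1229, 927 and 936 CPM in liver and 352, 336 and 103 CPM in blood, 3.91-fold higher. Its constitutive relative Ppp1r15b was 2.12-fold lower and Eif2ak3, the kinase PERK, 2.20-fold lower. Nck1, Ppp1ca and Ppp1cc were the others lower. Eif2ak4, encoding GCN2, was 2.28-fold higher, a call lost without any of 5 of the 6 libraries (it held without blood library 3; log2 fold change 0.98 to 1.59).

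Among 9 termination and rescue genes, 2 were higher and 2 lower (22.2% each, against 17.4% and 14.2% of all genes tested). Etf1, the release factor eRF1, had 334, 474 and 305 CPM in liver and 58.0, 82.7 and 66.5 CPM in blood, 5.37-fold higher. Pelo, a rescue factor, was 3.84-fold higher, while Gtpbp2 and Nemf were 1.62- and 1.94-fold lower, Nemf overlapping Klhdc2 on the opposite strand. The call of Pelo was lost without liver library 1 or 3 or blood library 1 or 2 (log2 fold change 1.54 to 2.51 over the fits with a library left out), and that of Gtpbp2 without liver library 1. In the list of mTORC1 and its inputs 4 of 23 were higher and 0 lower: Rragd, Deptor, Tsc1 and Rragc. That share, 17.4%, equals the 17.4% of all genes tested that were higher. Mtor itself had a log2 fold change of 0.02. The call of Tsc1 was lost without liver library 2 or 3 or blood library 1 or 2 (0.71 to 1.11). Of 6 genes for MNK and RSK kinases and Pdcd4, 2 were lower (33.3%, against 14.2% of all genes tested): Mknk1 and Rps6ka1. Mknk1, an eIF4E kinase, had 101, 121 and 99.0 CPM in liver and 210, 203 and 208 CPM in blood. The call of Rps6ka1 was lost without any liver library or without blood library 3 (-1.05 to -0.55), and also with total-count or upper-quartile scaling.

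Of 22 genes for cytosolic tRNA synthetases and their scaffold proteins Aimp1 and Aimp2, 5 were higher in liver and 0 lower. Those higher were Iars, Eprs, Rars, Tars and Aars (22.7%, against 17.4% of all genes tested). Eprs had 191, 47.6 and 74.1 CPM in liver, with liver library 1 well above the others, and 17.6, 15.9 and 20.8 CPM in blood. Of 7 poly(A) binding genes, Paip2b was higher and Paip2 lower (14.3% each). Of 9 mitochondrial factors Gfm1 was higher (11.1%), and of 8 hypusine and diphthamide genes Dohh and Dph1 were higher (25%). Dph1 had 0.706 to 1.56 CPM in liver and 0.0670 to 0.287 in blood, near the level of 3 counts, and overlaps Ovca2 on the same strand. Ovca2 was itself higher in liver (log2 fold change 2.18, adjusted p = 0.0018) with 1480% of the counts of Dph1, so reads of the overlap cannot be told apart. The call of Dph1 was lost without any single library (2.25 to 3.56), with limma-voom, without a filter and with the replicate block. The call of Dohh was lost without library 1 of either group (1.24 to 1.71), that of Paip2b without liver library 1 or blood library 2 or 3 (1.06 to 1.45) and that of Paip2 without liver library 1 or 3 or blood library 1 or 2 (-0.87 to -0.53), with upper-quartile scaling and with at least 30 counts in 3 libraries.

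**Figure D4:**
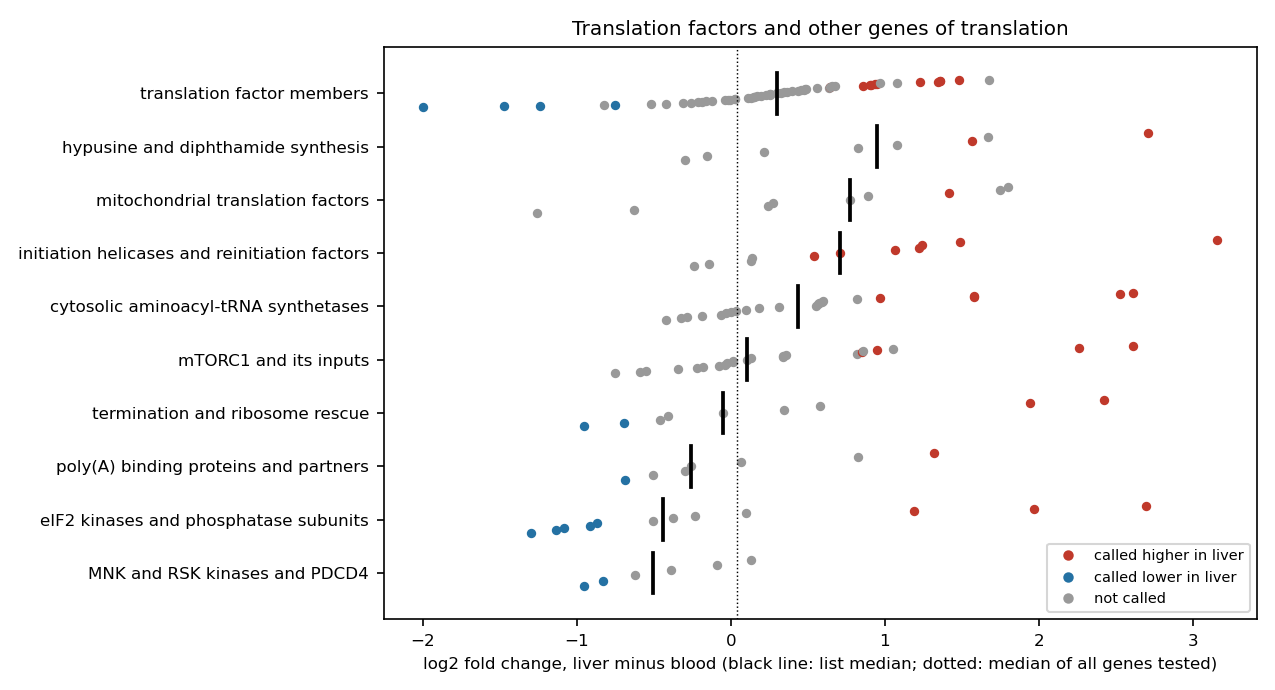
Log2 fold change, liver minus blood, of each tested gene in the member list and 9 other translation lists, with a black line at each list's median and a dotted line at the median of all genes. The members' median is 0.30, and the initiation helicase list has 7 of 11 genes called higher.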

How the data were processed

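The authors deposited RSEM expected counts per gene for 6 libraries; per the submitters' processing notes reads were checked with FastQC 0.11.5 and processed with STAR, RSEM and limma on GRCm38, and no source used here gives other versions, filters or the strand setting. Per the labels' protocols, libraries were made with a stranded total RNA kit for low input. Expected counts were rounded and tested with edgeR 4.0.16 in R 4.3.3 (filterByExpr with a minimum of 10 counts and 15 in total, TMM scaling, robust quasi-likelihood fit, Benjamini-Hochberg over 13458 genes, adjusted p under 0.05). The method was also run on simulated data, which cannot show that the calls hold in these libraries. DESeq2 1.42.0 and limma 3.58.1 (voom) served as alternatives. CPM values use the TMM scaling, and a level of 3 counts was 0.180 to 0.262 CPM. Rows were matched to GENCODE release 21 by identifier (98.9%) for positions and exon lengths, and promoters to RefSeq by symbol. Counting error aside, the precision rests on 3 libraries per group.

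Named genes were the called members, the most abundant of each role, those next to the threshold, paralogs, and up to 4 called genes with the largest change per related list; further genes were named after their values were seen. The members and lists were chosen with earlier results of these data known. Libraries of one group differed beyond sampling noise (chi-square per degree of freedom 52.1 to 79.0). Correlations of deviations between same-numbered libraries were 0.102, 0.247 and 0.109, which the rule used here counts as paired, although liver 3 with blood 1 reached 0.101. The labels do not state pairing, and these correlations do not settle it. The reported calls come from a fit without a block, and a replicate block was fitted as an alternative.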

Additional observations from a re-analysis of the deposited data

How the results depend on the processing

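Across 16 alternatives, the calls of Eif4a1, Eif4e, Eif2s1, Eif3a, Eif3e, Eif4ebp1, Eef2k and Eif2d were kept in all, and that of Eif4ebp2 in 15 (lost without liver 3 and blood 1, adjusted p = 0.077). Members higher in liver numbered 11 in the reported fit, 7 to 11 on leaving out a library (7 without liver library 1), and 4 at an adjusted p under 0.01. Upper-quartile scaling gave 15 higher and 4 lower, DESeq2 14 and 4, limma-voom 12 and 4, the replicate block 12 and 5, and the fit without liver 3 and blood 1 gave 8 and 3. In the other lists the replicate block gave 6 mTORC1 genes higher (4 without it), 3 termination genes higher (2 without it), 6 eIF2 kinase and phosphatase genes lower (5 without it), 1 mitochondrial factor lower (0 without it) and 1 hypusine or diphthamide gene higher (2 without it). The members' median log2 fold change of 0.30 was 0.38 with total-count scaling, 0.39 with upper-quartile scaling and 0.23 to 0.33 on leaving out a library (0.23 without blood library 2). The median of all genes, 0.04, was 0.11 with total-count scaling, 0.13 with upper-quartile scaling and 0.42 without a filter. Among named members that were not called, Eif5a, at -0.02, changed sign: 0.041 with total-count scaling, 0.067 with upper-quartile scaling (these scalings moved the median of all genes by 0.067 and 0.087, more than the size of the Eif5a value), 0.030 with at least 30 counts in 3 libraries, 0.20 without liver 3 and blood 1, and -0.14 to 0.14 on leaving out a library. Eif2s3y ran from -0.28 to 0.051, Eif4a2 from -0.056 to 0.23 (-0.10 without liver 3 and blood 1) and Eif4g3 from -0.051 to 0.24. Of 511 fits of 32 named members, 457 kept their direction and call, 25 lost the call, 17 gained one and 12 changed sign. Of 431 fits of 27 named genes of other lists, 381 kept both and 50 lost the call. With 3 libraries a group, an uncalled member is not shown to be unchanged, and members such as Eif5a2 had 7 to 24 counts per library.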
